A study of Mus musculus with 4 samples.

Results

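The transcripts described here are those of the mitochondrial respiratory chain and ATP synthase, counted in single cells from mouse lymph nodes. Members were chosen by gene symbol from the 32285 genes of the count matrices: symbols starting with Nduf and a subunit letter and digit (complex I), the 4 Sdh subunit genes (complex II), Uqcr (complex III), Cox4 to Cox8 (complex IV), Atp5 (complex V) and mt- (the mitochondrial genome). This rule took 97 genes, of which 84 lie in the nucleus (37 of complex I, 4 of complex II, 8 of complex III, 18 of complex IV and 17 of complex V) and 13 are mitochondrially encoded. A further symbol, Ndufb1-ps, matched but was dropped for its pseudogene suffix. Subunits with other names, such as Ndufab1 and Cyc1, were kept apart as a separate list. The mice were wild-type C57BL/6, and the EV group received extracellular vesicles released by induced pluripotent stem cells (iPSC EVs, 100 µg in all), injected under the skin. There were 2 EV and 2 control libraries, each from unsorted cells of dissociated draining nodes. The sample labels call the controls untreated and give 24 h, whereas the series text gives day 5 and the study's methods describe controls injected with PBS, so the time and the control injection are uncertain. Age, sex and the number of mice behind each library were not given in the sources used here, and p-values measure the spread between these libraries only.

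The respiratory chain passes electrons from NADH (complex I) and succinate (complex II) through complexes III and IV to oxygen, and complex V uses the resulting proton gradient to make ATP. Most subunits are encoded in the nucleus and imported, while the mitochondrial genome encodes core subunits of complexes I, III, IV and V and none of complex II. Nearly all mitochondrial mRNAs are cut from long transcripts of one strand, mt-Nd6 comes from the opposite strand, and the pairs mt-Atp8 with mt-Atp6 and mt-Nd4l with mt-Nd4 each stay joined in a shared mRNA whose poly(A) tail follows the downstream gene. Resting lymphocytes rely largely on oxidative phosphorylation, and activated lymphocytes enlarge their mitochondria.

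The overlaps between mitochondrial genes are shown first because mt-Atp8 and mt-Atp6 went opposite ways in EV lymphocytes, as did mt-Nd4l and mt-Nd4. In the mouse genome build GRCm38, the whole mt-Atp8 gene (chrM:7766-7969, plus strand, 204 bases) ends inside mt-Atp6 (chrM:7927-8607), and the 43 shared bases are in capitals.
mt-Atp8: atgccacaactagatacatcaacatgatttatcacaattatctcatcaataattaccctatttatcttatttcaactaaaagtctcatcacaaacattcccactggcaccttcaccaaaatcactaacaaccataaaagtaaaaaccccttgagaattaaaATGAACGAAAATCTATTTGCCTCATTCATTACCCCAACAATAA
mt-Atp6, first 60 bases: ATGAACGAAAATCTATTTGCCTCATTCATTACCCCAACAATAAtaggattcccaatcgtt
The mt-Nd4l gene (chrM:9877-10173, plus strand, 297 bases) shares its last 7 bases, in capitals, with the start of mt-Nd4 (chrM:10167-11544).
mt-Nd4l: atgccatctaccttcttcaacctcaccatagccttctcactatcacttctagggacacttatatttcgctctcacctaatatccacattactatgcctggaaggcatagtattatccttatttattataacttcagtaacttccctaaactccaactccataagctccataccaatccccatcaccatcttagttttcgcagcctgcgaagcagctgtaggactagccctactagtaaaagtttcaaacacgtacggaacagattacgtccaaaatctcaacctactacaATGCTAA
mt-Nd4, first 60 bases: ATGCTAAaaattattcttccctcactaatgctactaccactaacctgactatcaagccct
The ends of mt-Nd5 (chrM:11742-13565, plus strand) and mt-Nd6 (chrM:13552-14070, minus strand) meet tail to tail, and 14 bases, in capitals, belong to both on opposite strands.
mt-Nd5, last 60 bases: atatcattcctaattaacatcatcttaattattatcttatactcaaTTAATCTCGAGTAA
mt-Nd6, last 60 bases: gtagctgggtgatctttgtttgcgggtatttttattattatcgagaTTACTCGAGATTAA
How reads that touch both genes of a same-strand pair were assigned was not examined, and the values of these pairs are uncertain to that extent.

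The 4 libraries held between 50749656 and 70418672 UMIs (unique molecular identifiers, 1 per captured mRNA molecule) in 34323 barcodes, of which 32716 passed the limits on genes, UMIs, mitochondrial and ribosomal share. Cells were gated on raw UMIs as B cells (Cd79a, no Cd3e), CD4 T cells (Cd3e and Cd4, no Cd8a or Cd79a), CD8 T cells (Cd3e and Cd8a, no Cd4 or Cd79a) and macrophages (at least 2 UMIs of C1qa and C1qb together, no Cd3e). Between 2502 and 4866 B cells, 923 and 1624 CD4 T cells and 1003 and 1861 CD8 T cells were gated per library, but only 42 to 91 macrophages. The B, CD4 and CD8 gates carried their defining markers, with a summed B marker level of 12249 to 13856 CPM (counts per 1000000 UMIs of the gate) in B cells and at most 38.4 CPM in T cells. The macrophage gate carried macrophage markers at 24672 and 21046 CPM in the controls and 15405 and 11672 CPM in the EV libraries, together with B cell markers at 3141 and 2927 CPM in the controls and 5483 and 6061 CPM in the EV libraries. Macrophages had a median of 1100 to 1456 UMIs per cell, against 4142 to 9871 in the lymphocyte gates. In each lymphocyte gate both EV libraries were deeper than both controls, at 5811 and 5615 against 4142 and 4905 in B cells. CD4 T cells had 8339 and 7551 against 6046 and 6984, and CD8 T cells 9871 and 9110 against 7397 and 8565. EV libraries held more B cells (4866 and 4301 against 3016 and 2502) and fewer CD4 T cells (923 and 1267 against 1383 and 1624). Depth thus went with treatment, and only fits with cells thinned to 1000 UMIs evened it per cell. Between 12 and 26 barcodes were shared by any pair of libraries.

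Among lymphocytes, EV libraries carried a larger share of mitochondrially encoded transcripts than controls, while the share of nuclear subunits overlapped between groups. In B cells the 13 mt- genes made up 3.28% and 3.18% of UMIs in the controls and 3.47% and 3.85% in the EV libraries. In CD4 T cells they made up 2.95% and 2.89% in the controls and 3.13% and 3.44% in the EV libraries. For CD8 T cells the share was 3.19% and 3.11% in the controls against 3.31% and 3.59%. The EV libraries were higher without overlap in each of these classes, by 0.43, 0.37 and 0.29 percentage points of the mean, and EV replicate 2 was highest in each. The 84 nuclear genes made up 1.18% and 1.24% of B cell UMIs in the controls and 1.21% and 1.10% in the EV libraries, so that the groups overlapped. CD4 T cells held 1.32% and 1.35% in the controls and 1.39% and 1.28% in the EV libraries, and CD8 T cells 1.32% and 1.34% against 1.37% and 1.30%. The ratio of mitochondrial to nuclear UMIs was 2.78 and 2.56 in control B cells and 2.86 and 3.52 in EV B cells. No test was made of these summed shares, and with 2 libraries a group an exact permutation test cannot go below p = 0.33. The sums describe the RNA captured per gate, in which more mitochondria and more transcripts per mitochondrion cannot be told apart. They are shares of all UMIs, so they also move when other transcripts change. Cytosolic ribosomal protein transcripts were lowest in EV 2 in each lymphocyte class, as in B cells (204750 against 223160 to 232370 CPM). Their part in the mt- shares was not tested.

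**Figure D1:**
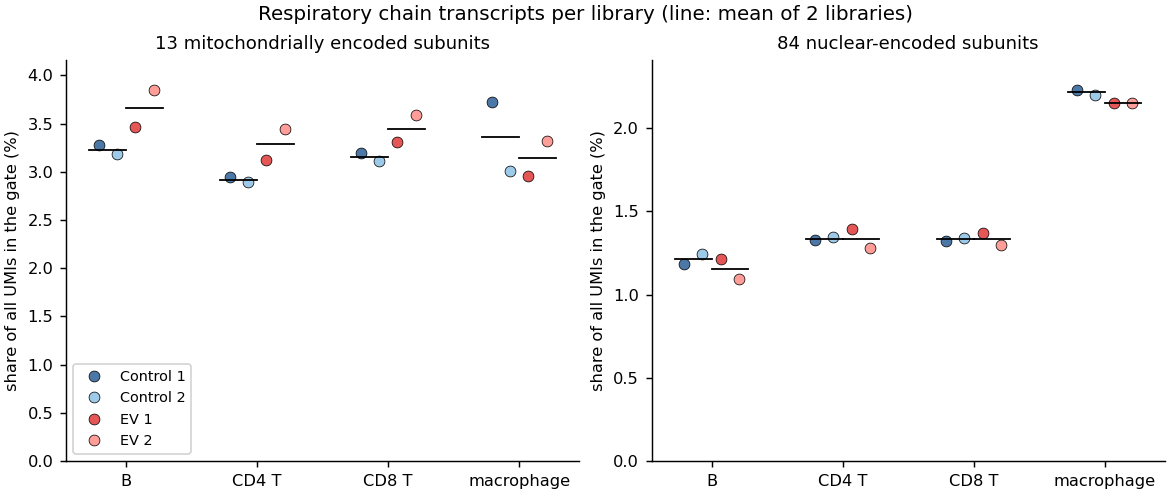
Share of all UMIs of a gate (%, vertical axis from 0) in the 13 mt- genes (left) and the 84 nuclear subunits (right), with 1 point per library and a line at the mean of 2 libraries. In B, CD4 T and CD8 T cells both EV libraries lie above both controls for the mt- genes, from 3.47% and 3.85% against 3.28% and 3.18% in B cells, and in macrophages the nuclear share reaches 2.15% to 2.23%.

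Macrophages held the highest nuclear share of the gates. Their mt- share was 3.72% and 3.01% in the controls and 2.96% and 3.32% in the EV libraries, with overlap. Their nuclear share was 2.23% and 2.20% in the controls and 2.15% and 2.15% in the EV libraries, lower without overlap and above that of every lymphocyte gate. The filter acts on the same measure: the limit of 10% mitochondrial UMIs removed 8.70%, 19.2%, 6.19% and 10.7% of gated macrophages in Control 1, Control 2, EV 1 and EV 2, but at most 1.65% of any lymphocyte gate. Without that limit the macrophage mt- share was 4.92% and 5.87% in the controls and 3.51% and 4.35% in the EV libraries, lower without overlap. At a limit of 5% it was 2.15% and 2.31% in the controls and 2.40% and 2.79% in the EV libraries, higher without overlap, so that the direction depended on the limit. The direction of the nuclear share depended on the gate. With a stricter gate, in which no Cd79a UMI was allowed, it was 2.57% and 2.52% in the controls and 2.86% and 2.98% in the EV libraries, higher without overlap, and with thinned cells or without doublets the groups overlapped.

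Of the 13 mt- genes, 4 were lower in EV libraries without overlap in all 3 lymphocyte classes (mt-Atp8, mt-Nd4l, mt-Nd5 and mt-Nd6) and 6 were higher (mt-Nd2, mt-Co2, mt-Atp6, mt-Co3, mt-Nd4 and mt-Cytb). Of 11184 genes tested in all 3 classes, 7.83% were lower and 9.23% were higher in this way. The classes come from the same 4 libraries and are no independent repeats of each other. By edgeR's quasi-likelihood test, with Benjamini-Hochberg adjustment over all genes of a class, mt-Atp8 was called in both T cell classes, mt-Nd4l, mt-Nd5 and mt-Nd6 were called in CD8 T cells, all of them lower, and no mt- gene was called higher.

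mt-Atp8, a small subunit of the membrane part of ATP synthase, gave the largest difference of the mt- genes in each lymphocyte class. CD8 T cells held it at 123 and 81.6 CPM in the controls, against 56.8 and 32.4 CPM after EVs. The groups did not overlap, and the log2 fold change was −1.21 ± 0.21 (SE, n = 2 and 2, adjusted p = 0.0155). CD4 T cells held it at 131 and 84.5 CPM, against 59.8 and 37.0 CPM, a log2 fold change of −1.16 ± 0.22 (adjusted p = 0.0346). In B cells the values were 141 and 85.8 CPM against 67.1 and 36.3 CPM, a log2 fold change of −1.13 ± 0.28 that missed the threshold (adjusted p = 0.0785). Control 1 was highest and EV 2 lowest in each class, and the libraries of each group also stood apart from each other. DESeq2 did not call mt-Atp8 in either T cell class (adjusted p = 0.334 for CD4 and 0.297 for CD8). Macrophages showed 155 and 110 CPM against 54.1 and 51.4 CPM on 9 to 16 UMIs per library (log2 fold change −1.24 ± 0.48, adjusted p = 0.496).

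mt-Nd4l, a core membrane subunit of complex I, stood at 263 and 207 CPM in control CD8 T cells and at 143 and 139 CPM in EV CD8 T cells. Here the EV libraries lay close together and well below both controls, with a log2 fold change of −0.73 ± 0.11 (adjusted p = 0.00554). In B cells it stood at 266 and 203 CPM against 159 and 159 CPM (log2 fold change −0.56 ± 0.13, adjusted p = 0.0586), and in CD4 T cells at 240 and 192 CPM against 154 and 139 CPM (−0.56 ± 0.12, adjusted p = 0.051). Both of these missed the threshold narrowly by edgeR, and DESeq2 gave adjusted p = 0.00121 and 0.00378 for them.

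mt-Nd5, a proton-pumping subunit of complex I, stood at 522 and 479 CPM in control CD8 T cells and 385 and 315 CPM in EV CD8 T cells. The log2 fold change was −0.52 ± 0.11 (adjusted p = 0.0276), and the call was lost without Control replicate 1 (−0.45, adjusted p = 0.217) and without upper limits on genes and UMIs (adjusted p = 0.0545). mt-Nd6, the complex I subunit of the opposite strand, stood at 37.6 and 30.6 CPM against 25.8 and 18.7 CPM, a log2 fold change of −0.62 ± 0.14 (adjusted p = 0.0446) that was also lost without Control replicate 1 (−0.47, adjusted p = 0.126). The mt-Nd6 call was lost by DESeq2 (adjusted p = 0.0666), with cells thinned to 1000 UMIs (−0.87, adjusted p = 0.112) and without upper limits (0.0862) as well. In B cells mt-Nd5 and mt-Nd6 gave −0.36 ± 0.12 and −0.68 ± 0.17, and in CD4 T cells −0.42 ± 0.12 and −0.52 ± 0.14, none of them called by edgeR.

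**Figure D2:**
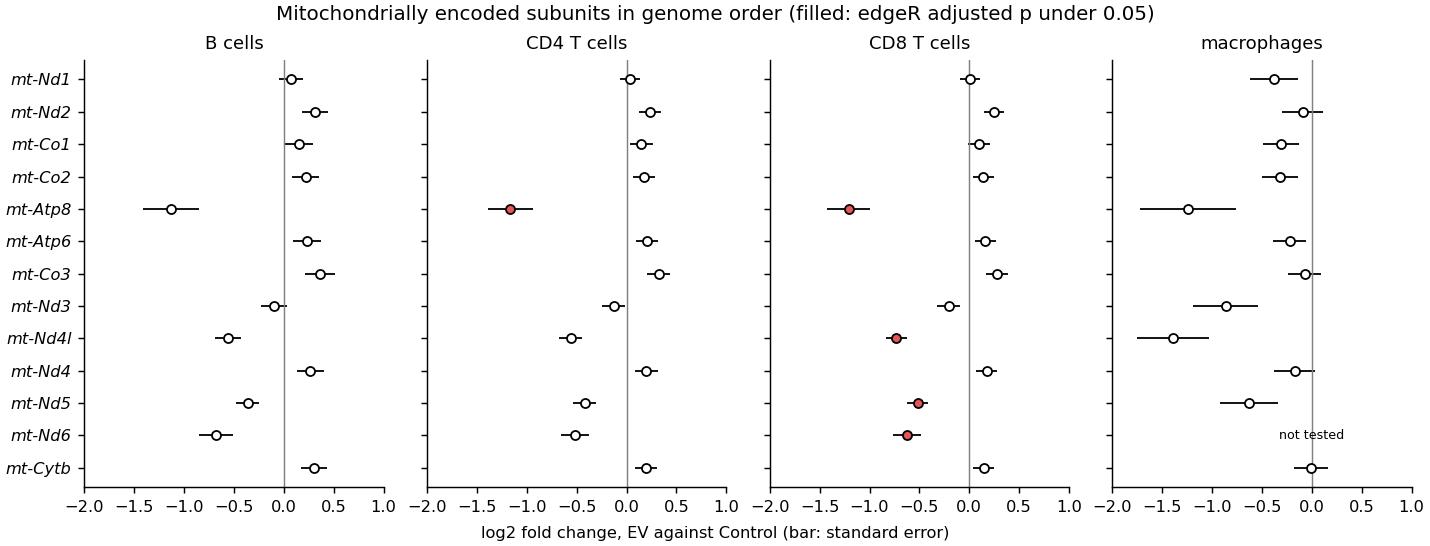
Log2 fold change (EV against Control, horizontal axis) of the 13 mt- genes in genome order from top to bottom, 1 panel per class, with bars for the standard error and filled points for an edgeR adjusted p under 0.05. mt-Atp8, mt-Nd4l, mt-Nd5 and mt-Nd6 lie left of 0 in every class in which they were tested, from −1.21 to −0.52 in CD8 T cells, while mt-Co3 lies at 0.36 in B cells.

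The genes of each joined pair went opposite ways, the upstream gene lower and its downstream partner higher in EV lymphocytes. By edgeR neither downstream gene was called in any lymphocyte class (adjusted p from 0.324 to 0.452). As each pair shares an mRNA with its tail after the downstream gene, 3′ counts of mt-Atp8 and mt-Nd4l do not measure a separate transcript. Of the UMIs of mt-Atp8 and mt-Atp6 together, mt-Atp8 took 2.33% and 1.42% in control B cells and 0.973% and 0.509% in EV B cells. It took 2.23% and 1.40% in CD4 T cells against 0.889% and 0.539%, and in CD8 T cells 1.99% and 1.31% against 0.821% and 0.476%. From high to low, the order of the libraries was Control 1, Control 2, EV 1, EV 2 in each of these classes. Of the UMIs of mt-Nd4l and mt-Nd4 together, mt-Nd4l took 12.2% and 9.66% in control B cells and 7.07% and 6.03% in EV B cells, and the macrophages, on 24 to 39 UMIs of mt-Nd4l, gave 12.3% and 10.6% against 5.73% and 4.67%. No test was made of these shares.

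**Figure D3:**
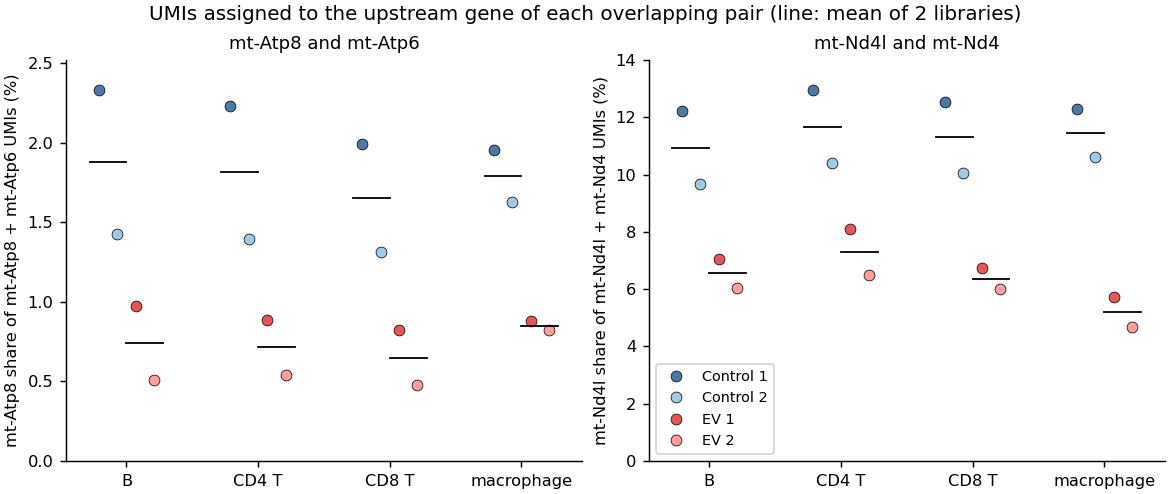
UMIs assigned to the upstream gene as a percentage of the UMIs of both genes of the pair (vertical axis from 0), for mt-Atp8 with mt-Atp6 (left) and mt-Nd4l with mt-Nd4 (right), with 1 point per library and a line at the mean of 2 libraries. Both EV libraries lie below both controls in every class, at 0.509% to 0.973% against 1.42% to 2.33% for mt-Atp8 in B cells.

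Some transcripts outside the member rule moved with the same libraries. Gm42418 and AY036118, which overlap ribosomal RNA sequence, summed with Malat1 and Neat1 to 33052 and 30270 CPM in control B cells and 24985 and 22038 CPM in EV B cells. Malat1, the largest part of this sum, overlapped between groups, at 23723 and 19873 against 18873 and 21049 CPM. AY036118 alone went from 777 and 658 CPM in control B cells to 423 and 43.1 CPM, and Cmss1 from 2774 and 2169 to 1180 and 133 CPM, in the library order of mt-Atp8. Cdk8 showed that order as well, at 731, 416, 255 and 88.3 CPM. Gm42418 (8391 and 9629 against 5574 and 837 CPM) and Lars2 (195 and 208 against 138 and 35.8 CPM) were also lower in EV B cells. Their order differed, with Control 2 highest. Summed heat shock transcripts went the other way, at 2400 and 2664 CPM in control B cells and 3957 and 4185 CPM in EV B cells. The part of any of these in the mt- results was not tested.

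The 6 mt- genes that were higher without overlap differed by less, and edgeR called none of them. mt-Co3, a core subunit of complex IV, stood at 6224 and 6133 CPM in control B cells and at 7336 and 8559 CPM in EV B cells (log2 fold change 0.36 ± 0.15, adjusted p = 0.237). In CD4 T cells it stood at 5737 and 5760 against 6726 and 7675 CPM (0.33 ± 0.12, adjusted p = 0.19) and in CD8 T cells at 6195 and 6152 against 7070 and 7918 CPM (0.28 ± 0.11, adjusted p = 0.22). The controls agreed closely and EV 2 was highest in each class, and DESeq2 called the gene in B cells (adjusted p = 0.0152) and CD4 T cells (0.0391). mt-Nd2, a complex I subunit, gave 0.31 ± 0.13, 0.24 ± 0.11 and 0.25 ± 0.10 (B, CD4 T, CD8 T), and mt-Cytb, the only mitochondrially encoded subunit of complex III, gave 0.30 ± 0.13, 0.20 ± 0.11 and 0.14 ± 0.10. mt-Atp6, mt-Co2 and mt-Nd4 lay between 0.14 and 0.26. mt-Nd1, mt-Co1 and mt-Nd3 were outside both groups, with mt-Nd3 between −0.20 and −0.10 in the lymphocyte classes.

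Among the nuclear subunits, differences between EV and control libraries were small in lymphocytes. Of 97 members, 92 were tested in B cells, 91 in CD4 T cells, 90 in CD8 T cells and 89 in macrophages, the others being too low. In B cells edgeR called no member (smallest adjusted p = 0.0586), against 2.55% of all genes (1.57% called higher and 0.987% lower). At an unadjusted p under 0.05 by edgeR stood 11 of 92 members, beside 2516 of 13270 genes. DESeq2 called 5 members in B cells, and its share of all genes is not given here. The call in CD4 T cells was 1 member, mt-Atp8, against 1.09% of all genes (0.788% called higher and 0.302% lower). In CD8 T cells 5 were called, among them the 4 mt- genes above, against 2.2% of all genes (1.34% called higher and 0.855% lower). The median log2 fold change of the nuclear members was −0.02 in B cells, 0.03 in CD4 T cells and 0.03 in CD8 T cells, near the median of all genes tested (−0.0016, 0.00072 and 0.00033). Groups did not overlap for 28 of 79 nuclear members in B cells, 26 of 78 in CD4 T cells and 35 of 77 in CD8 T cells, against 51.9%, 49.4% and 49.7% of all genes. In B cells 13 were higher and 15 lower (25.6% and 26.3% of all genes), in CD4 T cells 17 and 9 (24.2% and 25.2%), and in CD8 T cells 27 and 8 (24.4% and 25.3%).

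**Figure D4:**
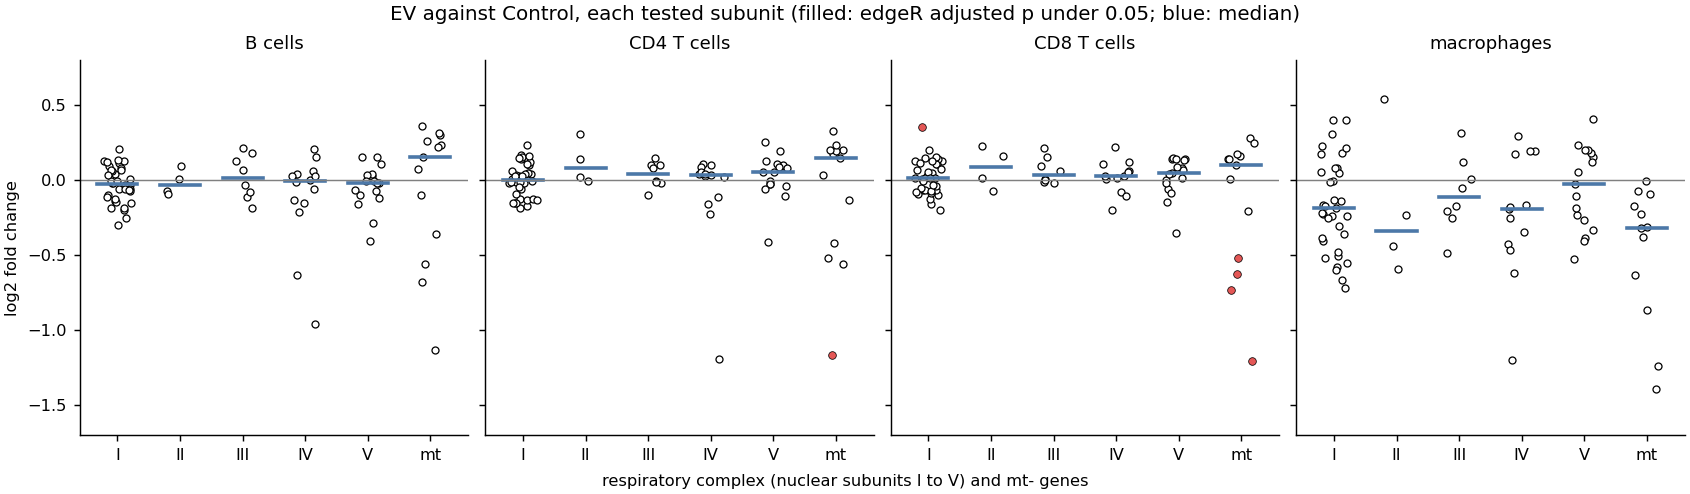
Log2 fold change (EV against Control, vertical axis) of every tested member by complex, 1 panel per class, with filled points for an edgeR adjusted p under 0.05 and a blue line at the median. Most nuclear members of the lymphocyte classes lie close to 0 (medians −0.02, 0.03 and 0.03), and the mt- genes split. In macrophages 62 of 89 members lie below 0 by the scaling of that fit.

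These counts rested strongly on EV replicate 1. Without it, 29 members were called in B cells, 18 in CD4 T cells and 14 in CD8 T cells, with 19.8%, 16.5% and 16.9% of all genes called. The 29 in B cells were 2 nuclear members higher and 17 lower, with 6 mt- genes higher and 4 lower. Without EV replicate 2 the counts were 4, 6 and 10, beside 7.17%, 6.87% and 5.63% of all genes. Without Control replicate 2 they were 1, 2 and 5, beside 1.38%, 1.43% and 2.9%, and without Control replicate 1 they were 0, 1 and 2, beside 0.69%, 0.757% and 1.48%. In these fits the remaining library of a group is assumed to vary like the others.

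In complex I the 36 tested members ranged from −0.19 to 0.23 in CD4 T cells, and their median log2 fold change was −0.02 in B cells and 0.01 in CD8 T cells. Ndufa4 had the highest UMI level of this group, in which it is placed by its symbol although its protein is found with complex IV. It stood at 222 and 253 CPM in control B cells and 261 and 230 CPM in EV B cells.

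Complex II, which joins the chain to the TCA cycle and has no mitochondrially encoded subunit, gave no call. Sdhb, its iron-sulfur subunit, stood at 72.7 and 77.7 CPM in control CD8 T cells and at 84.0 and 92.1 CPM in EV CD8 T cells (log2 fold change 0.23 ± 0.08, adjusted p = 0.177). Sdhc, a membrane anchor, stood at 32.5 and 35.7 against 40.1 and 44.1 CPM in CD4 T cells (0.30 ± 0.11, adjusted p = 0.19). Sdha, the flavoprotein, lay between −0.07 and 0.02 in the lymphocyte classes, and Sdhd between −0.09 and 0.02. The 8 members of complex III ranged from −0.19 to 0.22 in B cells, and Uqcrh, the member with the highest UMI level, gave 0.06 ± 0.12 in B, 0.08 ± 0.11 in CD4 and 0.01 ± 0.10 in CD8 T cells.

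In complex IV the common subunits carried nearly all UMIs and the forms known from other tissues were rare. Cox4i1 stood at 458 and 511 CPM in control B cells and 529 and 429 CPM in EV B cells, with overlap, and gave log2 fold changes of −0.02 to 0.04 in the lymphocyte classes. Cox6a1 was 0.06 to 0.12 higher, Cox6b1 lay between −0.06 and 0.03, Cox7a2 between 0.03 and 0.06, and Cox8a between 0.02 and 0.04. Cox7a1, the heart and muscle form of Cox7a, had 10 to 11 UMIs per library in B cells and 5 or fewer in each other gate and library. Cox6b2, the testis form, had 6 to 18 UMIs per library in lymphocytes. Cox8b had at most 2 UMIs in any gate and library, and Ndufa4l2 (counted with complex I by its symbol), Cox7b2 and Cox8c had none in any gate.

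In complex V the lowest log2 fold change of each lymphocyte class belonged to Atp5k. This gene, which encodes subunit e of the membrane part of ATP synthase, stood at 150 and 114 CPM in control B cells and at 98.8 and 100 CPM in EV B cells. In CD4 T cells it stood at 163 and 125 against 112 and 105 CPM, and in CD8 T cells at 159 and 117 against 106 and 110 CPM. The EV libraries were lower without overlap in each class, with log2 fold changes of −0.41 ± 0.12, −0.41 ± 0.12 and −0.36 ± 0.12, and none was called (adjusted p = 0.131, 0.132 and 0.144). Control 1 stood well above the other 3 libraries in each lymphocyte class. Atp5e, with the highest UMI level of complex V, gave −0.10 ± 0.10, −0.03 ± 0.10 and −0.06 ± 0.09. Atpif1, the inhibitor of the ATP synthase, is no member by the rule and gave −0.07 ± 0.10, −0.13 ± 0.12 and −0.23 ± 0.10, also not called.

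Of the nuclear members, 10 were higher without overlap in all 3 lymphocyte classes (among them Atp5c1, Atp5d, Cox6a1, Ndufs1, Ndufs3, Ndufs6, Ndufs7, Uqcrc1 and Uqcrfs1) and 4 were lower (Atp5k, Atp5md, Cox7c and Ndufb2), beside 9.23% and 7.83% of all genes tested in the 3 classes, so that nothing is read from these counts. Length was taken as the median over the annotated protein-coding transcripts of a gene, which can differ from the length of the transcript expressed. Across nuclear members, the log2 fold change and this annotated length went together weakly. Spearman correlations were 0.39 for B cells, 0.34 for CD4 T cells and 0.38 for CD8 T cells (over 79, 78 and 77 genes). Cytosolic ribosomal protein genes, which are also short, gave 0.40, 0.43 and 0.41, and all protein-coding genes tested gave 0.06, 0.01 and −0.02. These are descriptions across genes that share the 4 libraries, without a test.

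In macrophages no member was called for EV against control (0 of 89 by edgeR, with 5 members at an unadjusted p under 0.05), as for all genes (0.0% of 3497, with 316 at an unadjusted p under 0.05, and 6 called by DESeq2). By the scaling of this fit, all 12 tested mt- genes had negative log2 fold changes, from −1.39 to −0.01. So did 50 of 77 nuclear members (median −0.18, against −0.01 for all genes). The unscaled shares gave log2 ratios of −0.04 for nuclear and −0.10 for mt- genes. In the joint fit with CD4 T cells, the EV effect differed by a median of 0.08 for nuclear members (48 of 79 above 0). That median was −0.16 for mt- genes and 0.19 for all genes. A broad fall in macrophages is therefore not shown. In the scaled values of macrophages alone, groups did not overlap for 38 members, 6 higher and 32 lower, against 41.4% of all genes, 20.9% higher and 20.4% lower. mt-Nd4l stood at 412 and 267 CPM in the controls and 125 and 123 CPM in the EV libraries (−1.39 ± 0.36, adjusted p = 0.313), and mt-Nd3 at 1322 and 665 against 491 and 571 CPM (−0.86 ± 0.33, adjusted p = 0.477). Without Control replicate 2, both of these genes were called. Cox4i1 stood at 1357 and 1364 CPM against 1020 and 751 CPM (−0.62 ± 0.24, adjusted p = 0.491). Lower macrophage markers and higher B cell markers in the EV libraries, given above, moved with these values, and their part was not tested. On simulated counts of this gate, 11.8% of genes changed by a log2 of 1 were recovered, against 100% in each lymphocyte class, so that differences of this size were mostly not detectable in macrophages. The changed genes were drawn at a mean log2 CPM of at least 5, and those lost to the filter were not counted. These shares do not hold for each gene, as mt-Atp8 in B cells (−1.13) was not called.

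The difference of the EV effect between classes was tested directly, with each library as a block. No member was called for B against CD4 T cells, where 1.79% of all genes were (0.797% higher and 0.997% lower), nor for CD8 against CD4 T cells (0.377%, with 0.0865% higher and 0.291% lower). Macrophages against CD4 T cells gave no member either (0.111% of all genes, with 0.0428% higher and 0.0685% lower). By edgeR, 7 of 91, 4 of 91 and 0 of 92 members had an unadjusted p under 0.05 in these 3 comparisons. Of all genes, 1541 of 13546, 1030 of 12721 and 585 of 11682 did. For the mt- genes the difference between B and CD4 T cells ranged from −0.19 to 0.09, and between CD8 and CD4 T cells from −0.16 to 0.01. The calls of mt-Nd4l, mt-Nd5 and mt-Nd6 in CD8 T cells therefore do not show that these genes differed from CD4 T cells in their EV effect.

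Many more members were called between cell classes than between treatments, and the same held for all genes (35.5% to 67.4% against 0.0% to 2.55%). In B cells, compared with CD4 T cells of the same library, 55 of 77 nuclear members were called lower and 4 higher, while 8 of 13 mt- genes were called higher and none lower. Of all genes, 67.4% were called, 33.7% higher and 33.7% lower. Complex V was lowest, with 14 of 17 members called lower and a median log2 difference of −0.31, and complex I had 24 of 36 lower and 3 higher (median −0.20). Complexes III and IV had medians of −0.15 and −0.15. With cells thinned to 1000 UMIs, and those with fewer left out, 43 rather than 67 members were called. Thinning also removes counts, so that a lost call need not mean a smaller difference. The share of all genes called in that fit is not given here.

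Ndufv3, an accessory subunit of the NADH-binding arm of complex I, stood at 76.5, 77.2, 71.4 and 73.7 CPM in B cells of Control 1, Control 2, EV 1 and EV 2 and at 127, 130, 132 and 129 CPM in CD4 T cells. It was lower in B cells in every library, by a log2 difference of −0.80 ± 0.04 (adjusted p = 2.19e-07). Cox7a2l stood at 259 to 301 CPM in B cells and 416 to 462 CPM in CD4 T cells (−0.66 ± 0.04, adjusted p = 3.18e-07). Atp5j2, Ndufa10 and Atp5h followed at −0.51, −0.51 and −0.50. Ndufs8, an iron-sulfur subunit of complex I, went the other way, with 69.4 to 79.5 CPM in B cells and 44.7 to 54.5 CPM in CD4 T cells (0.61 ± 0.05, adjusted p = 3.11e-06), and Cox8a was 0.20 ± 0.03 higher. Ndufb8 and Ndufs7 were called at 0.15 and 0.13. Both calls were lost with thinned cells, where the differences were no smaller (0.20 and 0.18, adjusted p = 0.0835 and 0.0934 by edgeR). Ndufb8 also lost its call without Control replicate 1 (0.16, adjusted p = 0.051) or Control replicate 2 (0.10, adjusted p = 0.117), and Ndufs7 without Control replicate 2 (0.12, adjusted p = 0.0559). Of the mt- genes, mt-Nd5 differed most (0.43 ± 0.03), and mt-Atp8, mt-Atp6, mt-Co1, mt-Nd4l and mt-Nd6 were not called.

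In CD8 T cells, compared with CD4 T cells, 26 of 76 nuclear members were called higher and 4 lower, and 10 of 13 mt- genes were called higher and none lower, against 39.8% of all genes called, 20.1% higher and 19.7% lower. The differences were small, with a median of 0.05 for nuclear members and 0.15 for mt- genes. mt-Nd2 was highest, by 0.39 ± 0.02 (adjusted p = 1.38e-09), and mt-Nd1 followed at 0.31 ± 0.02. Cox8a stood at 433, 459, 498 and 413 CPM in CD8 T cells and 349, 370, 409 and 330 CPM in CD4 T cells, higher in each library (0.31 ± 0.02, adjusted p = 1.94e-07). Ndufa9, Ndufa10, Sdhd and Ndufb2 were higher by 0.29, 0.27, 0.27 and 0.23, and the Sdhd call was lost with thinned cells (adjusted p = 0.2). The 4 lower members, Ndufa3, Atp5f1, Atp5md and Cox7c, differed by 0.12 or less on the log2 scale, and none kept its call with thinned cells or by DESeq2. Without Control replicate 1, Ndufa3 (adjusted p = 0.0525) and Atp5f1 (0.0768) lost their calls. Atp5md and Cox7c lost theirs without Control replicate 2, EV replicate 1 or EV replicate 2 (adjusted p from 0.0641 to 0.129), and Atp5f1 without EV replicate 2 (0.0706). mt-Nd4l (0.11) lost its call without Control replicate 1, Control replicate 2 or EV replicate 2 (adjusted p of 0.163, 0.15 and 0.0505), by DESeq2 (0.157) and with thinned cells (0.0612). In all, 24 members were called by DESeq2 and 22 with thinned cells, against 40 in the main fit. The shares of all genes called in those alternatives are not given here.

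Macrophages showed the largest nuclear differences. Compared with CD4 T cells, 44 of 78 nuclear members were called higher and 1 lower, against 35.5% of all genes called, 16.0% higher and 19.4% lower. The median log2 difference of nuclear members was 0.56, where the median of all genes was −0.24. This fit tested 10730 genes, whereas 3497 passed the filter in macrophages alone. The median of all genes thus includes genes with few counts in macrophages. Complex IV had 11 of 13 members called higher (median 0.83), complex II 3 of 4 (0.86), complex I 18 of 36 (0.50), complex III 4 of 8 (0.45) and complex V 8 of 17 (0.43). With the stricter gate 59 members were called, an alternative chosen after the data were seen. The share of all genes called in that fit is not given here.

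Cox4i2, a form of Cox4 known from lung and from tissues that respond to low oxygen, was far higher in the macrophage gate than in the lymphocyte gates. Its level in the 1298 to 2020 kept cells per library that fell in no gate was not examined. It had 6, 28, 17 and 13 UMIs in macrophages of Control 1, Control 2, EV 1 and EV 2, found in 5 of 42, 17 of 80, 13 of 91 and 11 of 67 cells. CD4 T cells, with 923 to 1624 cells per library, had 1 to 12 UMIs, and B and CD8 T cells 1 to 10 and 1 to 3. The level was 73.7, 161, 65.8 and 59.8 CPM in macrophages and 0.132 to 1.23 CPM in CD4 T cells, a log2 difference of 6.85 ± 0.59 (adjusted p = 1.02e-15). It was present in every library at 11.9% to 21.3% of gated macrophages, against at most 0.552% of the cells of any lymphocyte gate. Between treatments in macrophages it gave −1.20 ± 0.44 (adjusted p = 0.469), with the control libraries above the EV libraries.

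Cox6a2, the heart and muscle form of Cox6a, was also called in macrophages (5.94 ± 0.87, adjusted p = 4.79e-08), but on few cells. Its 0, 24, 1 and 36 UMIs came from 0, 2, 1 and 1 cells, and DESeq2 did not call it (adjusted p = 0.0768). Cox5a, a common subunit of complex IV, stood at 675, 721, 1014 and 860 CPM in macrophages and 173, 195, 201 and 191 CPM in CD4 T cells, higher in each library (2.10 ± 0.17, adjusted p = 8.86e-17). Uqcr11, a small subunit of complex III, stood at 405, 375, 352 and 409 against 113, 106, 110 and 105 CPM (1.83 ± 0.19, adjusted p = 1.06e-12). Ndufs8 was 1.50 ± 0.24 higher, in macrophages as in B cells. Ndufs4, a late-assembled complex I subunit, was the only member called lower, at 36.8, 133, 135 and 96.5 CPM against 171, 176, 170 and 182 CPM (−0.72 ± 0.24, adjusted p = 0.013). That call was lost with thinned cells (adjusted p = 0.15) and without EV replicate 2 (−0.65, adjusted p = 0.0812).

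No mt- gene was called between macrophages and CD4 T cells (0 of 13 by edgeR, with 1 at an unadjusted p under 0.05), and here the outcome followed the filters. Without the mitochondrial limit, 10 were called higher, as mt-Nd1 at 0.69 (adjusted p = 1.15e-05) and mt-Nd4 at 0.69 (9.03e-06), against 0.17 and 0.16 with it. All 13 then lay above 0. With the stricter gate all 13 lay below 0, and 6 were called lower, as mt-Atp6 at −0.72 (adjusted p = 7.18e-10). The shares of all genes called in these refits are not given here, so the numbers of calls are not read further. The direction of the mt- difference between macrophages and T cells thus depended on the limit and the gate.

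**Figure D5:**
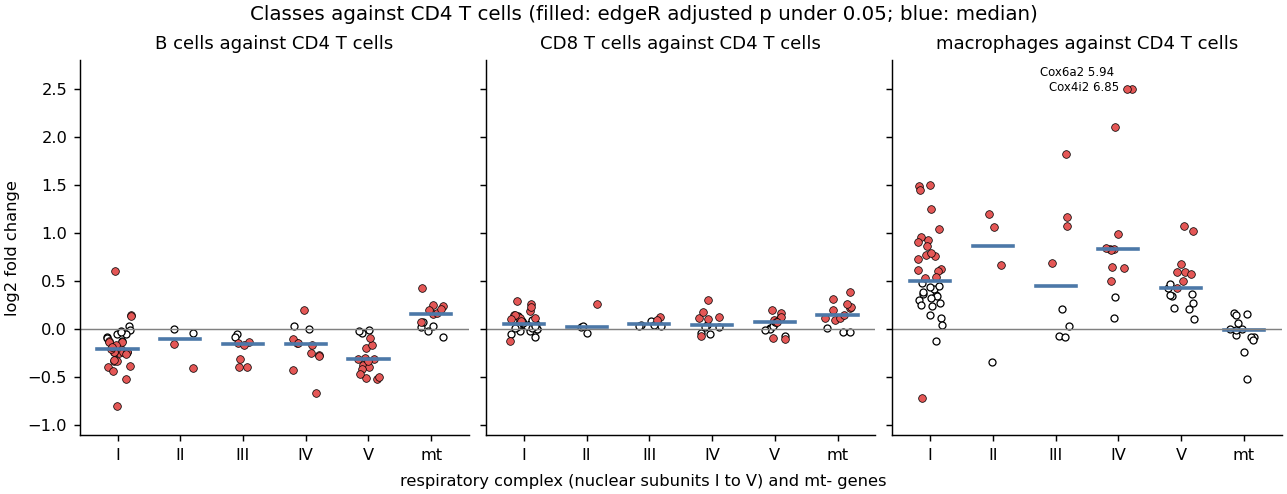
Log2 difference from CD4 T cells of the same library (vertical axis) of every tested member by complex, for B cells, CD8 T cells and macrophages, with filled points for an edgeR adjusted p under 0.05 and a blue line at the median. Cox4i2 (6.85) and Cox6a2 (5.94) lie beyond the axis and are drawn at its upper end. In B cells 69 of 77 nuclear members lie below 0 and 11 of 13 mt- genes above 0, and in macrophages 73 of 78 nuclear members lie above 0 and the mt- genes lie on both sides of it.

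Many respiratory chain genes are regulated through promoter sites for NRF1, GABP (also called NRF2), YY1 and SP1. In RefSeq promoters of GRCm38.p6, from 250 bases before to 50 after the start, 67 of 84 nuclear members were matched by gene identifier or symbol. Searching both strands, the NRF1 motif (GCGC, any 2 bases, GCGC) occurred in 26.9% of these members and 7.0% of all 27025 genes, the GABP motif CCGGAAG in 25.4% and 9.93%, the YY1 motif in 7.46% and 0.995%, and the SP1 motif GGGGCGGGG in 14.9% and 12.9%. These are counts of letters and not of bound sites. The promoters of Atp5k (chr5:108434350-108434649, minus strand) and Cox6a1 (chr5:115348909-115349208, minus strand) are printed because neither gene overlapped between groups in any lymphocyte class, with Atp5k lower and Cox6a1 higher in EV libraries, and the capitals mark NRF1 and GABP motifs in each.
Atp5k: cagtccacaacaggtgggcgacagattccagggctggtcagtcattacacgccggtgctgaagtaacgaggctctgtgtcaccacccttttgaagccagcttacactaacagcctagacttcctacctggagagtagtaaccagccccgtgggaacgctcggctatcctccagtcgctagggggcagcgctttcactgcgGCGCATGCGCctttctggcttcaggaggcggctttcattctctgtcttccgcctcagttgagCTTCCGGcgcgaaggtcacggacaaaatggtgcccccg
Cox6a1: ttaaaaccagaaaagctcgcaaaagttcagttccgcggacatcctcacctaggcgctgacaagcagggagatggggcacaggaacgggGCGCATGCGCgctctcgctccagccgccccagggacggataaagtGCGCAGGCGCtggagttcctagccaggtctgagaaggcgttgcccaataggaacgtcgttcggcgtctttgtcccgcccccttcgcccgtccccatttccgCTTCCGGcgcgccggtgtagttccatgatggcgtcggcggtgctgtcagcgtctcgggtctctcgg

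Other genes of mitochondrial function gave few calls for EV against control, where 2.55% of all genes were called in B cells, 1.09% in CD4 T cells and 2.2% in CD8 T cells. Of 19 genes of mitochondrial protein import and folding, Hspd1 and Hspe1, the chaperonin pair of the matrix, were called higher in B and CD8 T cells, and Hspd1 in CD4 T cells. Hspd1 stood at 75.4 and 77.4 CPM in control B cells and 123 and 122 CPM in EV B cells, with close libraries in each group (0.68 ± 0.08, adjusted p = 0.00649). In CD8 T cells it stood at 97.8 and 96.1 against 141 and 154 CPM (0.60 ± 0.08, adjusted p = 0.00361) and in CD4 T cells at 89.1 and 89.0 against 125 and 142 CPM (0.58 ± 0.09, adjusted p = 0.017). Hspe1 rose by 0.61 ± 0.11 in B and 0.47 ± 0.09 in CD8 T cells. Both were also among the genes summed above as heat shock transcripts, which were higher in EV libraries, and the part of that in these calls was not tested. In CD8 T cells, 1 of 52 assembly factors was called, Pet100 of complex IV, which fell by 0.53 ± 0.10, 1 of 29 genes of mitochondrial DNA expression, Polg2, which fell by 0.60 ± 0.14, and 1 of 14 TCA cycle genes, Suclg1, which rose by 0.43 ± 0.08. In CD4 T cells 1 of 78 mitochondrial ribosomal proteins was called, Mrps6 (0.68 ± 0.13). By edgeR, no gene was called among the 9 nuclear regulators (9 tested in B, 8 in CD4 T and 8 in CD8 T cells, with 2, 0 and 0 at an unadjusted p under 0.05). By the same test none was called among the 8 subunits and electron carriers outside the rule (8 tested in each lymphocyte class, with 1, 1 and 3 at an unadjusted p under 0.05). Of all genes, 2516 of 13270 in B, 1993 of 11933 in CD4 T and 2235 of 12284 in CD8 T cells stood under that p. In macrophages none of these 7 lists gave a call, with 1 assembly factor and 1 gene outside the rule at an unadjusted p under 0.05 by edgeR. Cycs, cytochrome c, had the smallest adjusted p of the genes outside the rule in B cells, at 57.0 and 60.3 against 81.1 and 68.8 CPM (0.35 ± 0.10, adjusted p = 0.109).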

How the data were processed

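Single-cell suspensions of mouse lymph nodes were profiled with 10x 3′ v3.1 chemistry in 4 libraries, 2 Control and 2 EV. Per the labels, the authors made the deposited UMI count matrices with Cell Ranger 7.1.0 on mm10. The treatment of intronic reads was not given in the sources used here. The counts are raw, and no depth scaling had been applied.

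Following the study's methods, barcodes were dropped below 200 or above 5000 genes, above 20000 UMIs, from a mitochondrial share of 10% and from a ribosomal share of 60%. The mitochondrial limit truncates a quantity reported here. The study's tests over cells were not used. Instead, UMIs were summed per library and gate and tested across libraries with edgeR 4.0.16 (R 4.3.3) by quasi-likelihood, after TMM scaling and filterByExpr, with Benjamini-Hochberg adjustment over all genes and a threshold of 0.05. CPM of tested genes are per 1000000 UMIs of the TMM-scaled gate total and differ between fits. In macrophages they differ enough that CPM from different fits should not be compared. CPM of summed lists and of Gm42418, AY036118, Cmss1, Cdk8, Lars2 and Malat1 are unscaled. Class comparisons and differences of EV effects had the library as a block. Doublets were kept in the main fits and left out in an alternative. DESeq2 1.42.0, no filter, library sizes without abundant genes, thinning to 1000 UMIs, other limits and gates, the replicate block and leaving out each library were the other alternatives. Thinning left out cells with fewer than 1000 UMIs. In Control 1, Control 2, EV 1 and EV 2 this took macrophages from 42, 80, 91 and 67 to 24, 43, 61 and 44. Depth was 50749656 to 70418672 UMIs per library. On simulated counts with 200 changed genes, a log2 of 0.5 was recovered for 78% of genes in B cells, 78% in CD4 T cells, 75% in CD8 T cells and 0% in macrophages. The changed genes were drawn from the more abundant genes and counted only where they passed the filter.

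The members, the gene lists and the alternatives were chosen with earlier results of these data known. The rule for naming took all mt- genes, called nuclear members, the nuclear member of highest level in each complex, tissue isoforms with their common partners, the 5 largest called differences in each direction between classes, the ATP synthase inhibitor, the Sdh genes and called genes of the other lists. The values of 1 nuclear member are not reported here. Further genes named from the patterns across lymphocyte classes (Atp5k, Cox6a1 and the lists of genes without overlap) were chosen after their values were seen. So were genes named from leaving out libraries, and Gm42418, AY036118, Cmss1, Cdk8, Lars2 and Malat1. The mt- sequences were read from GENCODE transcripts and the promoters from RefSeq. Figures were drawn with matplotlib 3.10.9.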

Additional observations from a re-analysis of the deposited data

How the results depend on the processing

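None of the named, called genes changed direction under the settings run, but the EV minus control differences of nuclear shares in every class and of the macrophage mt- share changed sign under some settings. Of the members, DESeq2 called 5 in B cells (0 by edgeR), 3 in CD4 T cells (1) and 2 in CD8 T cells (5), and without the expression filter edgeR called 4 in B and 5 in CD4 T cells. With thinned cells 2 were called in B and 3 in CD8 T cells, without the mitochondrial limit 1 in B cells, and without upper limits 1 in B, 2 in CD4 and 2 in CD8 T cells. A limit of 5%, stricter gates and removal of doublets each gave 2 in CD4 T cells. The replicate numbers were treated as names of the libraries only. Across genes, deviations of same-numbered libraries from their group means correlated at 0.029 to 0.138. With 2 libraries a group this is 1 value per class, which cannot show that the numbers carry no pairing. With the replicate block 4 were called in B cells, 5 in CD4 T cells and 1 in macrophages. Leaving out 1 library gave 0 to 29 calls in B cells, 1 to 18 in CD4 T cells, 2 to 14 in CD8 T cells, 0 to 2 in macrophages and 0 to 1 for the difference of EV effects between B and CD4 T cells. Between classes, thinning gave 43 in B (67) and 22 in CD8 T cells (40), and DESeq2 24 in CD8 T cells. Leaving out 1 library gave 58 to 62, 30 to 35 and, in macrophages, 32 to 49 (45). Except for EV against control without 1 library, the shares of all genes called in these alternative fits are not given here. Nothing about the members in particular is read from these counts.

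The EV minus control difference of the nuclear share in B cells was −0.0568 percentage points, 0.0179 without upper limits and −0.116 to 0.00275 without 1 library. That of the macrophage mt- share was −0.224, and it was −1.47 without the mitochondrial limit, 0.367 at 5%, 0.283 without upper limits, −0.666 with stricter gates and −0.58 to 0.133 without 1 library. That of the macrophage nuclear share was −0.0638, and it was 0.0619 with thinned cells, −0.0408 without the mitochondrial limit, −0.125 at 5%, −0.173 without upper limits, 0.377 with stricter gates, −0.0069 without doublets and −0.0786 to −0.0491 without 1 library. The causes were not tested. Few macrophages limit every value of that gate.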
